A study of Homo sapiens with 9 samples.

Results

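EGFR, ERBB2 and ERBB3 are cell-surface receptors of the EGF receptor family, and AREG, EREG, HBEGF, TGFA, BTC, EPGN and NRG1 encode ligands of that family. These 10 genes, 3 receptors and 7 ligands, were chosen by name from the 61552 genes listed for each of 9 RNA-seq libraries, and all 10 were among the 16571 genes tested. RNA came from MDA-MB-231, an established human triple-negative breast cancer (TNBC) cell line. Cells in serum-containing medium received either 2-DG, at 10 mM or 20 mM, or phosphate-buffered saline as the control for 24 h, with 3 libraries per condition. The compound, 2-deoxy-glucose, enters cells like glucose and interferes with glycolysis. The 9 libraries came from a single cell line. Nothing in the labels says whether the libraries of a condition came from separate cultures. The p-values therefore measure the spread between these libraries, which may be technical.

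Ligands of this family are made as membrane-anchored precursors, and proteases of the cell surface (sheddases) release the soluble factor. EGFR binds AREG, EREG, HBEGF, TGFA, BTC and EPGN. ERBB3 binds NRG1 and has little kinase activity of its own, and ERBB2 has no known ligand and acts as a partner in dimers with the other receptors. Bound dimers signal through RAS and the ERK kinases and through PI3K, and are then internalised and degraded or recycled. EGFR is commonly abundant in TNBC, which lacks hormone receptors and high ERBB2.

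The values are FPKM, reads on a gene scaled by gene length and library total. From these values whole reads were recovered for all 32806 genes above 0, and the library totals lay between 30974968 and 40843638 reads. FPKM is a share of a library, so fewer cells and less RNA per cell cannot be told apart from these files. Of 6 markers of a mesenchymal TNBC line, VIM lay between 243 and 313 FPKM, AXL between 89.9 and 126 and CD44 between 52.9 and 74.1, CAV1 had means of 103, 66.4 and 62.4 FPKM in the control, 10 mM and 20 mM 2-DG, ZEB1 had means of 5.06, 6.33 and 6.59, and SPARC did not exceed 0.215 FPKM. The summed level of these 6 was 564 to 592 FPKM in the control, 500.2 to 560.3 in 10 mM and 489 to 511 in 20 mM 2-DG. Of 6 luminal or hormone receptor markers, ESR1, PGR and FOXA1 did not exceed 0.0516 FPKM, GATA3 lay between 1.17 and 2.34, and KRT8 (80.5 to 153) and KRT18 (126 to 164) were abundant, with sums of 274 to 320, 215 to 256 and 213 to 229.8 FPKM. Of 4 epithelial markers, EPCAM lay between 2.61 and 4.51 FPKM, CDH1 had means of 0.365, 0.0493 and 0.0686, and KRT5 and KRT14 did not exceed 0.0573, with sums of 3.51 to 4.92, 2.99 to 3.88 and 2.72 to 3.16 FPKM. The summed leukocyte markers (PTPRC, CD3E, CD68 and CD14) were 2.55 to 3.95, 1.71 to 2.81 and 1.17 to 1.83 FPKM, nearly all of it CD14, while CD3E did not exceed 0.0109. The summed endothelial markers (PECAM1, VWF and CDH5) were 1.47 to 1.95, 1.12 to 1.45 and 0.854 to 1.05 FPKM, nearly all of it PECAM1. ADIPOQ was listed at 0 in all 9 libraries and PLIN1 did not exceed 0.192 FPKM. Except for the adipocyte pair, these sums had lower ranges in 20 mM 2-DG than in the control. Their part in the results was not tested.

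The sequences upstream of 5 of the genes are shown because EGFR and HBEGF moved in opposite directions in both 2-DG conditions, and because EPGN, EREG and AREG lie beside each other on chromosome 4. Each is the 250 bases before a start site annotated by RefSeq (GRCh38.p14), 5′ to 3′ on the strand of the gene. Capitals mark matches on either strand to any of 7 motifs: the AP-1 site TGACTCA, the CRE TGACGTCA, the CHOP-ATF4 site TGATGCAAT, the GC box GGGCGG, the CCAAT box, the TATA box (TATAAA) and the ERSE, an endoplasmic reticulum stress element that begins with CCAAT. The windows are EGFR at chr7:55018767-55019016 (plus strand), HBEGF at chr5:140346604-140346853 (minus strand), EPGN at chr4:74308220-74308469 (plus strand), EREG at chr4:74364895-74365144 (plus strand) and AREG at chr4:74444886-74445135 (plus strand).
EGFR: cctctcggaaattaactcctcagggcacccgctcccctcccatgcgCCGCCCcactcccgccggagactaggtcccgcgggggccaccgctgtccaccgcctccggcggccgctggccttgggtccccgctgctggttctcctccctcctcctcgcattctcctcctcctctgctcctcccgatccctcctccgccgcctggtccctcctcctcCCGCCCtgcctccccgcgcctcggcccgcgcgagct
HBEGF: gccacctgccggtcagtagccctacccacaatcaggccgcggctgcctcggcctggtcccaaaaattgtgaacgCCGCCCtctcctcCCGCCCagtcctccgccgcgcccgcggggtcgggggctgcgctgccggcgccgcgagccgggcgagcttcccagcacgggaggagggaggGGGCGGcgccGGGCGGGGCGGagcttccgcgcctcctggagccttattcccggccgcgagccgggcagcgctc
EPGN: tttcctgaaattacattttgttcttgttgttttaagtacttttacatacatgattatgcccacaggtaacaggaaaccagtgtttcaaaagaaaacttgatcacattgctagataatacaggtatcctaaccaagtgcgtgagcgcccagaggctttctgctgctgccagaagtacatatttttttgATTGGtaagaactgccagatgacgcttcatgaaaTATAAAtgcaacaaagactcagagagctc
EREG: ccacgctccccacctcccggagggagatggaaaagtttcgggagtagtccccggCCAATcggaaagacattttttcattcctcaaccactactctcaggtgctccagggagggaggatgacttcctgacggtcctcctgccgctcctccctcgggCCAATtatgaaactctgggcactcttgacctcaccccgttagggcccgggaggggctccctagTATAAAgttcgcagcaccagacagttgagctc
AREG: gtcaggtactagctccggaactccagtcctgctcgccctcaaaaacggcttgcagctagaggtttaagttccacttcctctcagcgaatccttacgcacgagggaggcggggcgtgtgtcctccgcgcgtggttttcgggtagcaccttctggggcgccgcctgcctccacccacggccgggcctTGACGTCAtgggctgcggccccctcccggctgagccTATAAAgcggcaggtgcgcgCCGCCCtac

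For EGFR the window of the upstream start site is shown. RefSeq also gives EGFR a downstream start, not printed, whose window (chr7:55109589-55109838) had 38.8% GC, 2 AP-1 sites and 2 TATA boxes. GC content was 73.6% in the upstream EGFR window and 76.4% in the HBEGF window, against a median of 58% over 35116 RefSeq promoter windows of the same length. The upstream EGFR window held 2 GC boxes, beginning at -204 and -36 relative to the start site, and the HBEGF window held 5, of which the last 2 overlap by a base. The AREG window had a CRE at -65, a TATA box at -29 and a GC box at -9. The EREG window had 2 CCAAT boxes, at -196 and -95, and a TATA box at -32. The EPGN window, with 38% GC, had a CCAAT box at -63 and a TATA box at -29. Over all promoter windows the GC box was found in 42.6%, the CCAAT box in 32.0%, the TATA box in 10.7%, AP-1 in 4.2%, the CRE in 1.65%, CHOP-ATF4 in 0.216% and the ERSE in 0.0740%. These matches describe letters in the windows and are not evidence of binding.

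In the control, AREG had the highest level of the 10 genes at 53.7 ± 6.51 FPKM (SD, n = 3), followed by HBEGF at 34.8 ± 1.26, EGFR at 14.0 ± 2.68, TGFA at 10.1 ± 0.655, ERBB2 at 8.81 ± 0.376, EREG at 5.28 ± 0.604 and NRG1 at 3.61 ± 0.184 FPKM. ERBB3 at 0.928 ± 0.188, BTC at 0.440 ± 0.0907 and EPGN at 0.0258 ± 0.0230 FPKM closed the order. No neighbours in this order overlapped in their range over the 3 control libraries. In 20 mM 2-DG, EGFR stood above HBEGF only narrowly (lowest EGFR library 24.10, highest HBEGF library 24.02 FPKM). In 10 mM 2-DG the ranges of EGFR and HBEGF overlapped. EREG and ERBB2 overlapped in both 2-DG conditions. AREG remained the highest and EPGN the lowest of the 10 in each condition. FPKM allows levels of different genes to be set side by side, but for NRG1, EPGN and ERBB3 the length at which the values gave whole reads was 1.89, 1.82 and 1.30 times the exon length in GENCODE release 29, so their place rests on the gene model used.

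**Figure D1:**
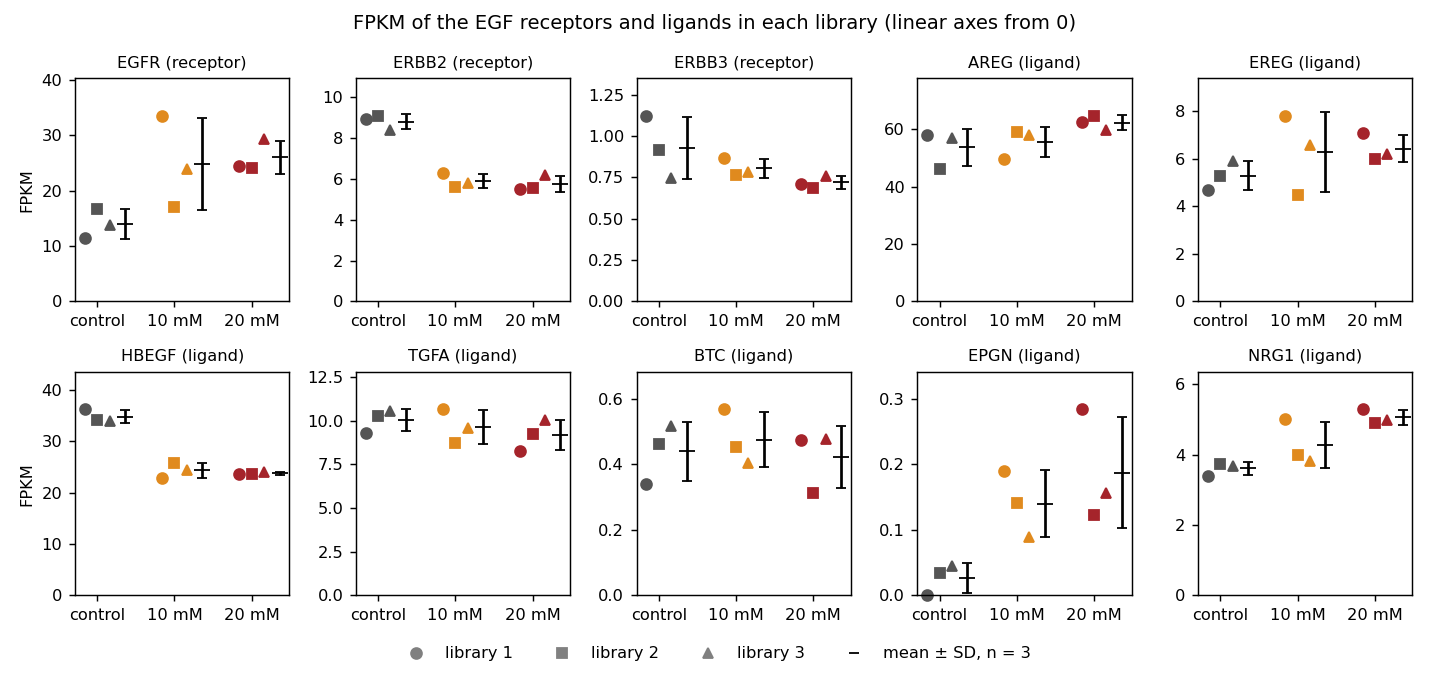
FPKM of each of the 10 genes in each library of the control, 10 mM 2-DG and 20 mM 2-DG, with the mean and SD of 3 libraries per condition; each panel has its own linear axis from 0. EGFR rises from a mean of 14.0 FPKM in the control to 26.0 FPKM in 20 mM 2-DG, ERBB2 and HBEGF fall, and EPGN does not exceed 0.284 FPKM.

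At 10 mM 2-DG, 1 of the 10 genes (EGFR) was called higher and 2 (ERBB2 and HBEGF) lower than in the control, at a Benjamini-Hochberg adjusted p under 0.05 in limma's moderated test on log2(FPKM + 1). Over all 16571 genes tested, 12.1% were called higher and 17.5% lower, so the members' shares of 10% and 20% are close to this background. At 20 mM 2-DG, 3 genes (EGFR, NRG1 and EPGN) were called higher and 2 (ERBB2 and HBEGF) lower, shares of 30% and 20% against a background of 15.3% and 21.6%. EPGN met the filter on low values only through its 2-DG libraries, so its call carries a difference that the filter fixed, and without it 2 of 9 members were called higher (22.2%). With upper-quartile scaling the background at 20 mM became 3114 genes higher and 2672 lower, in place of 2543 and 3582, and the calls of the members were unchanged in number. On the log2(FPKM + 1) scale no member reached the threshold of the study's methods (unadjusted p under 0.05 with an absolute log2 fold change over 1) in any comparison, against 0.579% of all genes higher and 1.16% lower at 10 mM, 0.966% and 1.96% at 20 mM, and 0.00603% and 0% between the doses. That scale compresses low genes: EPGN passed this threshold at 20 mM with a pseudocount of 0.1 (log2 fold change 1.17) and at both doses in limma-voom on the recovered reads (2.81 and 3.15), and no other member passed it there. By the unadjusted p of limma alone, 4 members at 10 mM and 6 at 20 mM were under 0.05. Over all 16571 genes tested these numbers were 6690 and 7629. Both comparisons use the same 3 control libraries.

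EGFR, the receptor of most of these ligands (ENSG00000146648, GRCh38 chr7:55019021-55211628), was higher in both 2-DG conditions. Its 3 control libraries had 11.4, 16.8 and 13.9 FPKM. In 10 mM 2-DG it had 33.6, 17.0 and 23.8 FPKM, and in 20 mM 2-DG 24.5, 24.1 and 29.4 FPKM. Every 2-DG library lay above every control library, although the lowest 10 mM library was close to the highest control. The mean rose 1.77-fold at 10 mM, a log2 fold change of 0.74 ± 0.21 (SE, adjusted p = 0.0248), and 1.85-fold at 20 mM, 0.86 ± 0.21 (adjusted p = 0.0103). The 2 doses differed by 0.11 on the log2 scale, with a 95% interval from -0.36 to 0.58 (adjusted p = 0.980).

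The libraries of the control and of 10 mM 2-DG differed in EGFR in the same order as in long genes as a class. In the 10 mM libraries EGFR deviated by 0.47, -0.47 and 0.00 (log2) from the condition mean, and the median of the 802 genes tested with more than 12000 bases deviated by 0.15, -0.14 and -0.02, while 1536 genes under 2000 bases deviated by -0.13, 0.11 and 0.00. In the control EGFR deviated by -0.26, 0.26 and 0.00 and the long genes by -0.10, 0.09 and 0.01. EGFR, at 12507 bases, is itself a long gene, and the part of this library difference in its values was not tested. The following fit takes out only the median deviation of each length bin, so it does not settle this part. With each library centred within 10 bins of gene length, a setting added once the data had been seen, EGFR was higher by 0.75 ± 0.17 at 10 mM (adjusted p = 0.00765) and by 0.87 ± 0.17 at 20 mM (adjusted p = 0.00261). At 10 mM the call was lost without control 1 (0.62, adjusted p = 0.0856) and without 10 mM library 1 (0.51, adjusted p = 0.0572), where the value fell too. It was also lost without control 3 (0.74, adjusted p = 0.0640) and without 10 mM library 3 (0.75, adjusted p = 0.0618), where the value stayed the same. At 20 mM it was kept without each library in turn.

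**Figure D2:**
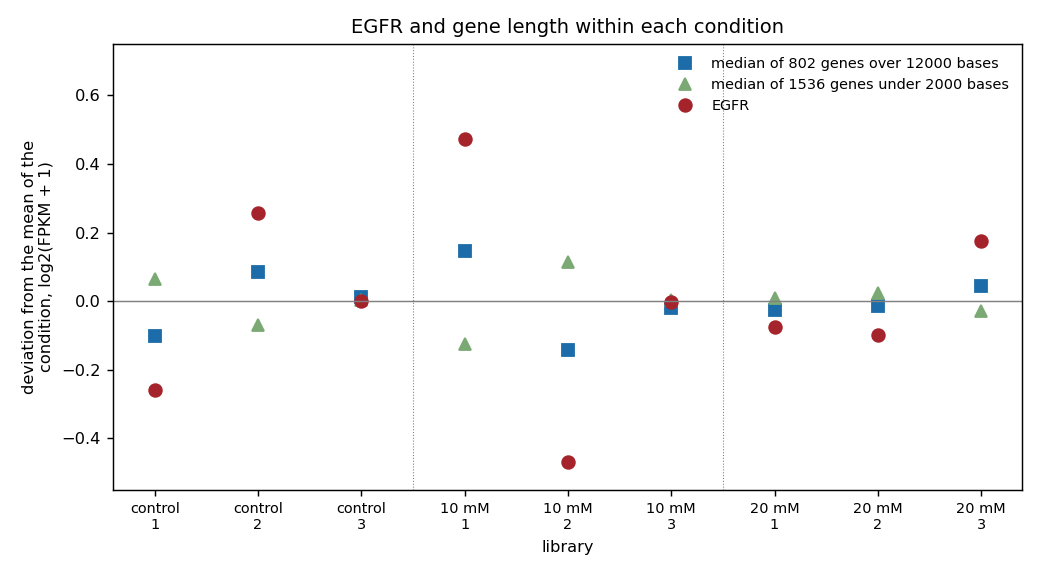
Deviation of each library from its condition mean (log2) for the median of 802 genes longer than 12000 bases, the median of 1536 genes shorter than 2000 bases, and EGFR. The long genes and EGFR move the same way in the 10 mM libraries, with EGFR at 0.47 and -0.47 where the long genes are at 0.15 and -0.14.

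ERBB2, the ligandless dimer partner (ENSG00000141736, chr17:39687914-39730426), was lower in both 2-DG conditions. It had 8.94, 9.11 and 8.39 FPKM in the control, 6.30, 5.63 and 5.80 FPKM in 10 mM 2-DG and 5.53, 5.54 and 6.22 FPKM in 20 mM 2-DG. The control libraries did not overlap with those of either dose, and the doses overlapped with each other. The fold was 0.671 at 10 mM (log2 fold change -0.51 ± 0.07, adjusted p = 0.000787) and 0.654 at 20 mM (-0.54 ± 0.07, adjusted p = 0.000385). In the annotation, 571 exon bases of ERBB2 are shared with MIEN1 and 194 with PGAP3, both on the opposite strand, and the sources used here do not say whether counting used the strand. For MIEN1 itself the log2 fold changes were 0.12 (adjusted p = 0.400) and -0.01 (adjusted p = 0.969).

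ERBB3, the neuregulin receptor with a weak kinase (ENSG00000065361, chr12:56076799-56103505), was the lowest of the receptors. Its FPKM ranged from 0.747 to 1.12 in the control, from 0.761 to 0.868 in 10 mM 2-DG and from 0.685 to 0.759 in 20 mM 2-DG. Both ranges with 2-DG overlapped with that of the control but not with each other, and neither dose passed the test (log2 fold change -0.09, adjusted p = 0.425, and -0.16, adjusted p = 0.142). The 95% interval at 20 mM ran from -0.34 to 0.02.

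HBEGF, a heparin-binding ligand of EGFR (ENSG00000113070, chr5:140332843-140346631), was lower in both 2-DG conditions. It had 36.3, 34.2 and 34.0 FPKM in the control, 22.9, 25.8 and 24.4 FPKM in 10 mM 2-DG and 23.6, 23.7 and 24.0 FPKM in 20 mM 2-DG. All 6 libraries with 2-DG lay below the 3 controls. The fold was 0.700 at 10 mM (log2 fold change -0.50 ± 0.06, adjusted p = 0.000187) and 0.683 at 20 mM (-0.53 ± 0.06, adjusted p = 8.67e-05). The doses differed by -0.03, with a 95% interval from -0.16 to 0.10.

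NRG1, the neuregulin that binds ERBB3 (ENSG00000157168, chr8:31639386-32767959), had 3.40, 3.74 and 3.68 FPKM in the control, 5.03, 3.99 and 3.83 FPKM in 10 mM 2-DG and 5.29, 4.91 and 4.98 FPKM in 20 mM 2-DG. Each 2-DG library exceeded each control library. Only the 20 mM difference passed the test, at 1.40-fold (log2 fold change 0.40 ± 0.10, adjusted p = 0.00960), against 1.19-fold at 10 mM (0.19, adjusted p = 0.169). The difference between the doses was 0.20, with a 95% interval from -0.01 to 0.42 (adjusted p = 0.749), so the doses were not shown to differ.

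EPGN, the ligand epigen (ENSG00000182585, chr4:74308473-74315307), rested on few reads. The control libraries held 0, 4 and 5 reads, those with 10 mM 2-DG 22, 19 and 10, and those with 20 mM 2-DG 29, 16 and 17. Every treated library had more reads than every control. Over the pooled reads the rate was 5.47 times that of the control at 10 mM (95% exact binomial interval 2.67 to 12.6, counting error only) and 7.06 times at 20 mM (3.49 to 16.2). EPGN passed the filter on low values through its treated libraries, so a difference was built into its being tested. On the log2(FPKM + 1) scale, which understates the change of so low a gene, it rose by 0.21 ± 0.06 at 20 mM (adjusted p = 0.0143) and stood at 0.15 at 10 mM (adjusted p = 0.0651). Without control 1, the library with 0 reads, the value at 20 mM was 0.19 (adjusted p = 0.0501). In absolute terms EPGN reached 0.284 FPKM at most, against 64.8 FPKM for AREG.

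AREG, amphiregulin (ENSG00000109321, chr4:74445134-74455009), had 57.9, 46.2 and 57.0 FPKM in the control, 49.5, 58.9 and 58.2 FPKM in 10 mM 2-DG and 62.5, 64.8 and 59.8 FPKM in 20 mM 2-DG. The 20 mM libraries lay above all controls and the 10 mM libraries overlapped with them. The log2 fold change at 20 mM was 0.22 ± 0.10, with a 95% interval from 0.0031 to 0.43 (unadjusted p = 0.0474, adjusted p = 0.104), and it was 0.05 at 10 mM (adjusted p = 0.741). With centring by gene length, the 20 mM value was 0.26 (adjusted p = 0.0260), and AREG, at 1642 bases, is a short gene. Without control 2, the lowest control, the 20 mM value was 0.12 (adjusted p = 0.337).

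EREG, TGFA and BTC did not pass the test at either dose. EREG, epiregulin (ENSG00000124882, chr4:74365143-74388751), ranged from 4.69 to 5.90 FPKM in the control, from 4.48 to 7.81 in 10 mM 2-DG and from 6.0 to 7.06 in 20 mM 2-DG. Its log2 fold changes were 0.19 (adjusted p = 0.400) and 0.24 (adjusted p = 0.263, 95% interval -0.11 to 0.59), and at 10 mM the value was 0.38 (adjusted p = 0.0310) without 10 mM library 2 and 0.039 (adjusted p = 0.869) without 10 mM library 1. TGFA, transforming growth factor alpha (ENSG00000163235, chr2:70447280-70554193), kept its means between 9.20 and 10.1 FPKM in the 3 conditions, with log2 fold changes of -0.05 (adjusted p = 0.699) and -0.12 (adjusted p = 0.343). BTC, betacellulin (ENSG00000174808, chr4:74744759-74794686), had between 32 and 53 reads per library. Its rate over the pooled reads at 20 mM was 0.943 times the control (95% exact binomial interval 0.725 to 1.23, counting error only). The spread between libraries is not in this interval, so it does not bound the change that 3 libraries per condition could detect.

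**Figure D3:**
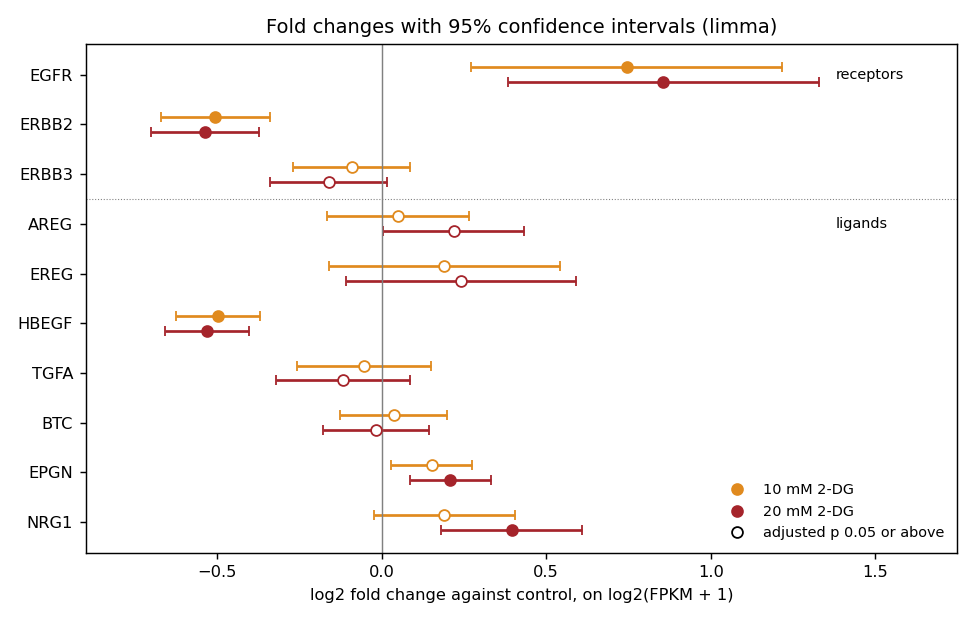
Log2 fold change of each of the 10 genes on the log2(FPKM + 1) scale at 10 mM and 20 mM 2-DG against the control, with 95% intervals from limma; filled points have an adjusted p under 0.05. EGFR lies furthest above 0 (0.74 and 0.86), and ERBB2 (-0.51 and -0.54) and HBEGF (-0.50 and -0.53) lie below 0 at both doses.

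Between 20 mM and 10 mM 2-DG, limma called 0 of the 10 genes, and 0 had an unadjusted p under 0.05. Over all genes 0 were called (0%) and 1140 had an unadjusted p under 0.05. In limma-voom on the recovered reads 0 members were called and 1 had an unadjusted p under 0.05. Over all genes 1033 had an unadjusted p under 0.05 in that fit.

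Of the 7 ligands, 0 were called higher and 1 lower (14.3%) at 10 mM, and 2 higher (28.6%, EPGN with the limit given above among them) and 1 lower at 20 mM. Of the 3 receptors, 1 was called higher and 1 lower at each dose. Over all genes 12.1% were called higher and 17.5% lower at 10 mM and 15.3% and 21.6% at 20 mM. The 1 ligand called lower was HBEGF at both doses, and with 7 ligands these shares are not read as a difference from all genes. The median log2 fold change at 20 mM was 0.21 over the ligands and -0.16 over the receptors, beside -0.02 over all genes tested, and at 10 mM it was 0.05, -0.09 and -0.01. At 20 mM the ligand median is the value of EPGN itself, which carries the limit of its filter. The receptor median is that of ERBB3, which was not called. Medians of so few genes take no account of level, and the most abundant receptor, EGFR, went the other way from the median of the receptors.

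Summed by level, the ligands overlapped with the control at both doses, and the receptors stood above it at 20 mM 2-DG. The summed FPKM of the 7 ligands was 108 ± 6.70 in the control, 100.7 ± 3.55 in 10 mM 2-DG and 107 ± 1.76 in 20 mM 2-DG (SD, n = 3 each). The sum of the 3 receptors was 23.8 ± 2.74, 31.5 ± 8.74 and 32.5 ± 3.38 FPKM. Ligand FPKM per receptor FPKM was 5.21, 3.74 and 4.86 in the control libraries, 2.37, 4.39 and 3.39 in 10 mM 2-DG and 3.50, 3.60 and 2.90 in 20 mM 2-DG. The 20 mM libraries all lay below the controls, although the highest of them (3.60) was close to the lowest control (3.74), and the 10 mM libraries overlapped with the controls. AREG and HBEGF, at 1642 and 2990 bases, are shorter than EGFR and ERBB2, at 12507 and 10321 bases. Within the control and within 10 mM 2-DG, the order of the libraries in this ratio was the reverse of that of the long genes. The sums, the ratio and this order describe chosen genes and were not tested.

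**Figure D4:**
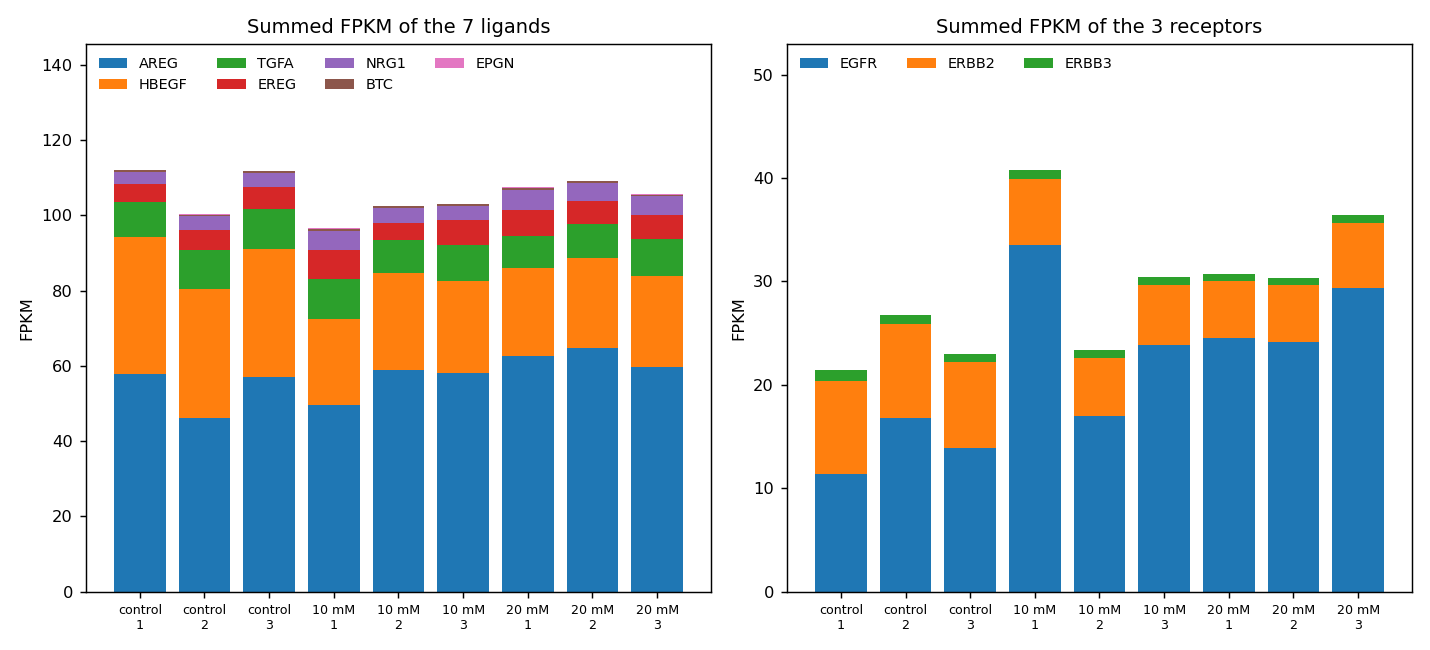
FPKM of the 7 ligands (left) and of the 3 receptors (right), stacked by gene for each of the 9 libraries on linear axes from 0. The ligand bars lie between 96.7 and 112 FPKM in all conditions. The receptor bars run from 21.5 to 26.8 FPKM in the control and from 30.3 to 36.4 in 20 mM 2-DG, mainly through EGFR. In 10 mM 2-DG the receptor bars run from 23.4 to 40.7 FPKM and overlap with the control.

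Within each side the composition shifted. EGFR made up 58.7% ± 4.90 of the receptor sum in the control, 77.8% ± 4.89 in 10 mM 2-DG and 80.0% ± 0.716 in 20 mM 2-DG, and ERBB2 made up 37.4%, 19.5% and 17.8%. The ratio of EGFR to ERBB2 was 1.59 ± 0.286, 4.15 ± 1.15 and 4.50 ± 0.198, with no overlap between the control (1.28 to 1.84) and either dose. AREG made up 49.6%, 55% and 58.0% of the ligand sum and HBEGF 32.3%, 24.2% and 22.1%. HBEGF stood at 2.56 times the FPKM of EGFR in the control, and at 1.08 and 0.921 times in 10 mM and 20 mM 2-DG.

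EPGN, EREG, AREG and BTC, 4 of the 7 ligands, are the only protein-coding genes in GENCODE release 29 within a span of 486 kb on chromosome 4 (chr4:74308473-74794686). EPGN, EREG and AREG lie on the plus strand and BTC on the minus strand. Their levels in the control differ from 0.0258 FPKM for EPGN to 53.7 FPKM for AREG, and at 20 mM 2-DG their log2 fold changes were 0.21, 0.24, 0.22 and -0.02 in the order EPGN, EREG, AREG and BTC. These values are on the log2(FPKM + 1) scale, which understates the change of EPGN, so they are not alike in fold. The log2 ratios of the mean FPKM were 2.86, 0.28, 0.22 and -0.06 in the same order, that of EPGN resting on few reads. In the limma test EREG, AREG and BTC did not pass, the fold change of BTC changed sign with the scaling factors, and the call of EPGN carries the limit of its filter.

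The other ligands and receptors of the family were scarce. ERBB4, the remaining receptor, had 26, 20 and 7 reads in all in the control, 10 mM and 20 mM 2-DG and was not tested. EGF, the founding ligand, fell from 0.426 to 0.290 FPKM at 20 mM (log2 fold change -0.15, adjusted p = 0.0492), a call that was lost in 15 of 16 alternatives. For NRG2 the log2 fold change was -0.06 (adjusted p = 0.467). NRG3 was listed at 0 in all libraries, and NRG4 had 11, 18 and 10 reads in the control, 10 mM and 20 mM 2-DG.

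Genes that act on the release of the ligands formed another list. Of 11 sheddases and their partners, 2 were called higher (18.2%) and 2 lower (18.2%) at 20 mM 2-DG, near the 15.3% and 21.6% of all genes, with a median log2 fold change of -0.08. RHBDF1, a partner that governs the maturation of ADAM17, rose from 19.2 to 26.4 FPKM (0.44 ± 0.07, adjusted p = 0.000786). ADAM17, the main sheddase of AREG, HBEGF and TGFA, rose from 3.41 to 5.47 FPKM (0.56 ± 0.17, adjusted p = 0.0244), but the call was lost in 6 of 17 alternatives. RHBDL2, a rhomboid protease, fell from 0.966 to 0.624 FPKM (-0.28, adjusted p = 0.0303), and that call was lost in 8 of 16. At 10 mM 1 of the 11 was called higher (9.09%) and 0 lower, beside 12.1% and 17.5% of all genes.

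Of 13 inhibitors of the receptors tested, 2 were called higher (15.4%) and 3 lower (23.1%) at 20 mM, also near the background, with a median of -0.01. CBLB, a ubiquitin ligase that marks active receptors for degradation, rose from 1.42 to 2.67 FPKM (0.61 ± 0.10, adjusted p = 0.00118). PTPRJ, a receptor phosphatase that acts on EGFR, fell from 18.9 to 11.7 FPKM (-0.65 ± 0.13, adjusted p = 0.00311). SOCS3, a feedback inhibitor of cytokine signaling, fell from 14.3 to 9.21 FPKM (-0.58 ± 0.08, adjusted p = 0.000282). At 10 mM 1 inhibitor was called higher (7.69%) and 4 lower (30.8%), beside 12.1% and 17.5% of all genes.

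Downstream of the receptors, 5 of 19 adaptors and proximal effectors were called higher (26.3%) and 2 lower (10.5%) at 20 mM, beside 15.3% and 21.6% of all genes, with a median of 0.08. At 10 mM 1 was called higher (5.26%) and 2 lower (10.5%), beside 12.1% and 17.5% of all genes. GAB2, a docking protein, rose from 8.34 to 12.7 FPKM (0.55 ± 0.12, adjusted p = 0.00468) and SRC, a tyrosine kinase, from 10.4 to 14.2 FPKM (0.41 ± 0.09, adjusted p = 0.00704). RASA1, which switches RAS off, rose from 10.4 to 14.1 FPKM (0.42 ± 0.13, adjusted p = 0.0340), a call lost in 6 of 17 alternatives. Of 10 genes of the RAS-RAF-MEK-ERK cascade, 3 were called higher (30%) and 1 lower (10%) at 20 mM, with a median of -0.08, beside the 15.3% and 21.6% of all genes. At 10 mM 1 was called higher and 1 lower (10% each), beside 12.1% and 17.5% of all genes. MAPK3, which encodes ERK1, fell from 20.2 to 10.8 FPKM at 20 mM (-0.84 ± 0.07, adjusted p = 1.3e-05) and had 12.5 FPKM at 10 mM (-0.65, adjusted p = 0.000104). The rises of MAP2K2 (0.25, adjusted p = 0.0367) and BRAF (0.25, adjusted p = 0.0462) were lost in 8 and 11 of 17 alternatives.

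Of 14 genes of receptor endocytosis and sorting, 1 was called higher (7.14%) and 2 lower (14.3%) at 20 mM, with a median of 0.09. Over all genes these shares were 15.3% and 21.6%. At 10 mM 2 were called higher (14.3%) and 1 lower (7.14%), beside 12.1% and 17.5% of all genes. RAB7A, the GTPase of late endosomes, rose from 43.8 to 54.5 FPKM (0.31 ± 0.05, adjusted p = 0.00129). VPS25 (-0.30, adjusted p = 0.0196) and EPN1 (-0.20, adjusted p = 0.0495) fell, and their calls were lost in 7 and 13 of 17 alternatives.

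**Figure D5:**
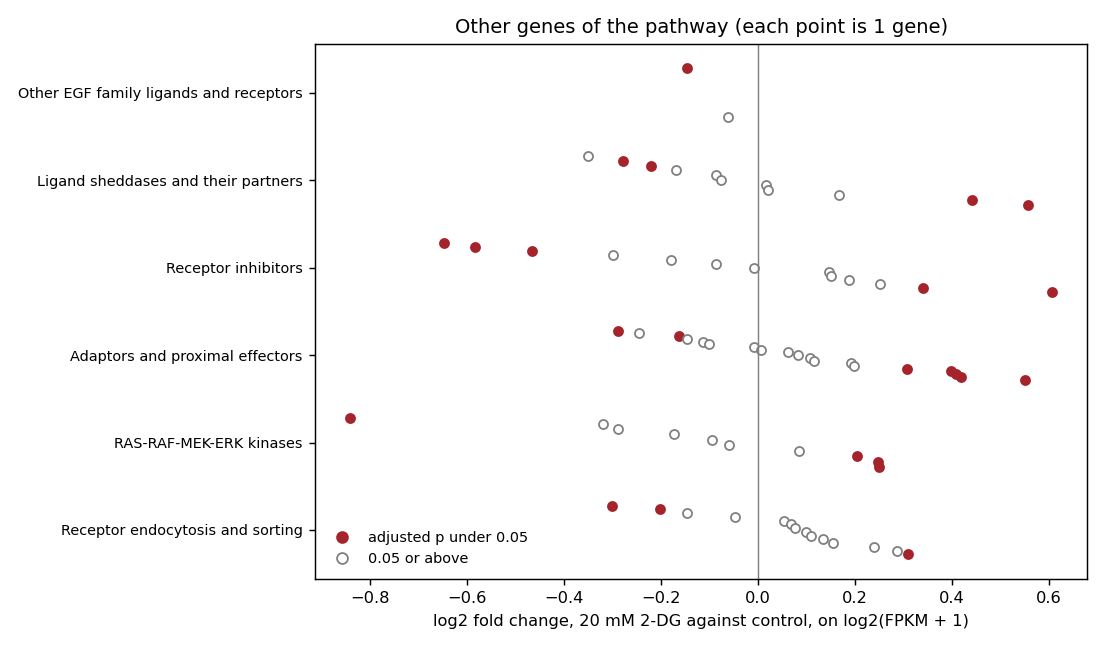
Log2 fold change at 20 mM 2-DG against the control for each tested gene of the 6 lists around the receptors, on the log2(FPKM + 1) scale, with filled points for an adjusted p under 0.05. MAPK3, at -0.84, lies furthest from 0 of these genes, followed by PTPRJ at -0.65 and CBLB at 0.61.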

How the data were processed

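RNA from 9 libraries of MDA-MB-231 cells was analysed, 3 each of control, 10 mM 2-DG and 20 mM 2-DG. The authors used a SMARTer mRNA-seq kit and an Illumina NovaSeq instrument, and deposited FPKM values for 61552 genes per library (20495 without a name). GRCh38 (hg38) is the genome build in the submitters' processing notes. The aligner, the counter, the annotation and the use of strand are not given in the sources used here. Lactate-treated libraries are not analysed here. No column of per-sample values was left unused.

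The authors' own calls came from DESeq2, which needs counts. Here the log2(FPKM + 1) values were fitted with limma 3.58.1 (R 4.3.3): lmFit over all 9 libraries with no term for replicate, contrasts, eBayes with a trend, and p-values adjusted by Benjamini-Hochberg across every gene tested. The pseudocount of 1 understates changes of low genes. Read numbers were recovered from the deposited FPKM by finding, with GENCODE 29 exon lengths, the library totals and then for each gene a length that gives whole reads in every library (tolerance 0.001 reads). For 48.9% of genes this was the GENCODE length. The reads are not the authors' counts, and a common factor of reads and length cannot be seen. A gene was tested if 3 or more libraries held 10 or more of its reads (scaled to the median depth) and all libraries together 15 or more. Counting intervals are exact binomial at 95% (SciPy 1.17.1). The fits were run on simulated reads with the same dispersion for every gene and no library effect of gene length. That setting differs from these libraries, so the run does not show how the fits perform on them. Replicates had Pearson correlations of 0.989 to 0.996, and their reads differed by 4.66 to 56.7 times the sampling variance, so none was taken for a copy of another.

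The members and the lists were chosen with earlier results of these data known. Named genes were the 10 members, ERBB4, EGF and, for each of the 6 lists written from general knowledge, up to 3 called genes with the largest absolute log2 fold change at 20 mM 2-DG. PGAP3, MIEN1, NRG2, NRG3 and NRG4 were named after their values were seen. Genes with a profile like that of a member were to be named for members called at 20 mM 2-DG with a log2 fold change beyond 1 in size, and 0 members met this. Pseudocount, filter, scaling, replicate block, limma-voom, call rule and single libraries were varied. Centring by gene length and GENCODE lengths for the ligand to receptor ratio were added after seeing the data.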

Additional observations from a re-analysis of the deposited data

How the results depend on the processing

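Of 501 log2 fold changes of the 10 genes recomputed under the alternatives, 469 kept their direction and side of the threshold, 6 lost the call and 6 gained it. Another 20 changed sign, of which 0 were called in either fit. With upper-quartile factors the difference between the doses became 0.0044 for ERBB2 and 0.0076 for HBEGF, and BTC at 20 mM became 3.55e-05 with median-ratio factors, 0.012 with upper-quartile factors and 0.022 with centring by gene length. With single libraries left out, the values that changed sign ranged as follows at 10 mM against control: AREG from -0.053 to 0.13, TGFA from -0.12 to 0.010 and BTC from -0.015 to 0.074. BTC at 20 mM ranged from -0.069 to 0.039. Between the doses, EGFR ranged from -0.12 to 0.35, ERBB2 from -0.080 to 0.0087, EREG from -0.14 to 0.20, HBEGF from -0.075 to 0.0074, TGFA from -0.13 to 0.0023, BTC from -0.088 to 0.0027 and EPGN from -0.00017 to 0.10. The number of members called higher at 10 mM 2-DG, 1, became 2 with a pseudocount of 0.1, with limma-voom on recovered reads and with centring by gene length, where EPGN was added, and 0 without a filter on low values, where EGFR was lost (adjusted p = 0.0921). Leaving out single libraries gave 0 to 2. The study's own call rule on log2(FPKM + 1) gave 0 higher and 0 lower at both doses (1 higher, EPGN, at both doses in limma-voom and at 20 mM with a pseudocount of 0.1), in place of 1 and 2 at 10 mM and 3 and 2 at 20 mM. The ratio of ligands to receptors moved by less than its SD in every alternative. Over all genes at 20 mM, median-ratio factors gave 2924 higher and 3058 lower and upper-quartile factors 3114 and 2672, in place of 2543 and 3582. Of 60 counts of list genes recomputed at 20 mM, 21 moved by over 1.5 times. The causes were not tested. Deviations from the group means correlated between -0.41 and 0.29 over 9 same-numbered pairs and between -0.23 and 0.52 over 18 other pairs. Same-numbered libraries were thus not more alike than others, which does not show whether they were prepared together. With the replicate number as a block, 1 member was called higher and 2 lower at 10 mM and 3 and 2 at 20 mM. A filter of at least 1 FPKM in 3 libraries left ERBB3, BTC and EPGN untested, with 2 members called higher at 20 mM. With 9 to 62 reads per condition for EPGN, depth limits its fold, and 3 libraries per condition limit the others.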
